A study of Mus musculus with 12 samples.

Results

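The genes described here are 38 mouse genes of DNA replication, the G2/M transition and mitosis, fixed by name and found by symbol among the 52632 genes of the table. All 38 were matched, and they were followed in kidney CD4 T cells of mice, purified by flow sorting. A dividing cell passes through G1, S phase, G2 and mitosis. In late G1 the MCM2-7 helicase is loaded at replication origins, E2F factors switch on genes for nucleotide supply and the replication fork, and in G2 the MuvB core with B-MYB and FOXM1 switches on mitotic genes. In resting cells MuvB forms the DREAM complex, which represses these genes. Most T cells resting in a tissue are not dividing. Transcripts of these genes in a sorted population can come from cells that are in cycle and from a basal level in the others. Bulk RNA does not separate these sources.

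Total RNA sequencing was done on 12 libraries, 3 in each of 4 groups. The groups were WT control, WT IRI, KO control and KO IRI, where WT is C57BL6/J, KO is CD4 Keap1 KO on the same background, and IRI is ischemia-reperfusion injury. In the IRI groups both renal pedicles were clamped for 30 min, and kidneys were taken 24 h later. Mononuclear cells were enriched on Percoll before the sort, and each library was made from 1 ng of RNA. WT mice were bought and KO mice were bred in house, so genotype and source of the mice cannot be told apart. The labels do not say how Keap1 was deleted, whether controls had sham surgery, or whether the libraries of a group come from separate animals, so a p-value reflects how far these libraries scatter, which may be technical. KEAP1 is the protein that keeps the stress-response factor NRF2 low.

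Values are FPKM (fragments scaled to transcript length and to library size), so the depth of a library and its counting error are unknown. They were divided by a scale factor per library, from 0.755 to 1.34, and are called rescaled FPKM below. Differences are on the log2(rescaled FPKM + 1) scale, with their standard error (SE), and the adjusted p of each comes from limma over 19288 genes, with a threshold of 0.05. Keap1 itself ran from 6.03 to 9.87 FPKM as deposited in WT and from 4.59 to 7.77 in KO, which overlap, while Nqo1, a known NRF2 target, was at most 0.543 in WT and at least 3.38 in KO. Cd4 ran from 63.1 to 286 rescaled FPKM and Cd3e from 88.9 to 265 over the 12 libraries, against 1.11 to 5.71 for Cd8a. The summed T cell markers (12 genes) were 1537 to 1688 in WT control and 927.3 to 1018 in WT IRI. The KO groups reached 1840 to 2343 without injury and 1493 to 1669 after IRI.

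No member was listed at 0 in any library. Pcna had the highest mean, 85.0 rescaled FPKM, 9 members had a mean of at least 10, 6 were between 5 and 10, 22 between 1 and 5, and 1 was under 1. The median of the members' means was 3.33, against 5.58 for all tested genes. Kif20a, a kinesin of cytokinesis, missed the filter of a mean of 1 FPKM, so 37 members were tested. For 10 members another protein-coding gene overlaps on the opposite strand. Examples are Cops6 and Ap4m1 at Mcm7, Ufd1 at Cdc45, Exosc9 at Ccna2, Rccd1 at Prc1 and Cdc23 at Kif20a. Since the sources used here do not say whether counting used strand, the values of these members can hold reads of the partner.

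The first question was how these genes differed after injury. Averaged over genotype (6 IRI against 6 control libraries), 9 of the 37 tested members fell: Rrm2, Mki67, Mcm5, Top2a, Kif11, Cenpe, Pcna, Tyms and Ccnb2. Their log2 differences ran from −1.21 to −0.32. Chek1, the S phase checkpoint kinase, rose by 2.21 ± 0.29 (SE, adjusted p = 0.000948), and 27 members did not pass. The members that fell were 24.3% of those tested, where 7.33% of all tested genes fell, and the single rise was 2.7%, where 6.35% of all genes rose. The median log2 difference of the members was −0.37, against 0.06 for all tested genes. In bulk RNA fewer cycling cells and less RNA per cycling cell cannot be told apart.

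**Figure D1:**
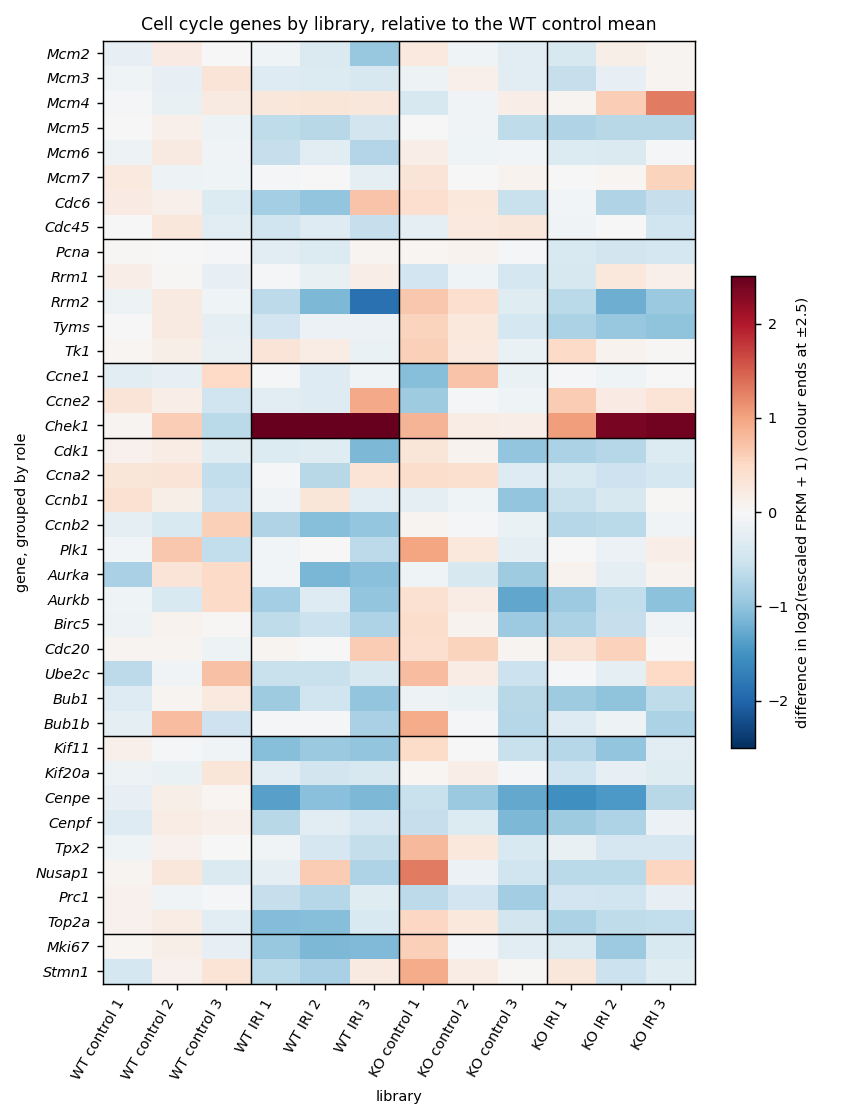
Heat map of the 38 members (rows, by role) in the 12 libraries (columns), coloured by the difference in log2(rescaled FPKM + 1) from the mean of the 3 WT control libraries. Chek1 stands out in red in the IRI libraries of both genotypes, except KO IRI 1 where it is paler, while rows such as Rrm2, Mcm5, Top2a and Mki67 turn blue.

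The promoters of the 5 members that passed in this comparison under every alternative setting tried are shown, since they moved in opposite directions: Chek1 up, and Rrm2, Mki67, Mcm5 and Top2a down. Each is the RefSeq window of 250 bases before to 50 bases after the annotated start (GRCm38.p6), written 5′ to 3′ on the gene's strand. The Chek1 window is chr9:36726609-36726908 (minus strand), Rrm2 is chr12:24708004-24708303 (plus), Mki67 is chr7:135716330-135716629 (minus), Mcm5 is chr8:75109259-75109558 (plus) and Top2a is chr11:99024140-99024439 (minus). Capitals mark exact matches, on either strand, of 5 motifs. These are the CHR element TTTGAA and a CHR-like TTTAAA, which DREAM and MuvB complexes are known to read, the CCAAT box, read by NF-Y, and E2F letters ending in C (TTTGGCGC or TTTCCCGC or TTTCGCGC or TTTGCCGC) or in G (TTTGGCGG or TTTCCCGG or TTTCGCGG or TTTGCCGG). The E2F letters ending in G were added after the Chek1 sequence had been seen.
Chek1: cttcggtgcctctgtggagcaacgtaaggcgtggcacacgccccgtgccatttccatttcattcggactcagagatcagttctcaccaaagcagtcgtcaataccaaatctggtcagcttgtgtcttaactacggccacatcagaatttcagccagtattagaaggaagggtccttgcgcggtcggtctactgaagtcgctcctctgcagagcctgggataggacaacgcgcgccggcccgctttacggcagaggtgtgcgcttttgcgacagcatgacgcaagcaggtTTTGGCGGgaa
Rrm2: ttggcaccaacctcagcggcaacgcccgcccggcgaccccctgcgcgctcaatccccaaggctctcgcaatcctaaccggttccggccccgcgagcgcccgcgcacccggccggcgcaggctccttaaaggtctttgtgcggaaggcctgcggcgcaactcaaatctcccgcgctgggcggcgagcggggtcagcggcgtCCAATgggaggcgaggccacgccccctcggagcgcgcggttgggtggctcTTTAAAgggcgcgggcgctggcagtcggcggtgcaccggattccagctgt
Mki67: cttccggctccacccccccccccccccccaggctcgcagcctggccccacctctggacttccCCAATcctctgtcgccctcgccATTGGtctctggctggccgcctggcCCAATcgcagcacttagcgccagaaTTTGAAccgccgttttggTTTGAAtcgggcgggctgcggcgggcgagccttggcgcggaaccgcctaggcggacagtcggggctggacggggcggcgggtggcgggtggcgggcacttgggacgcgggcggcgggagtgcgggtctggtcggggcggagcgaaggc
Mcm5: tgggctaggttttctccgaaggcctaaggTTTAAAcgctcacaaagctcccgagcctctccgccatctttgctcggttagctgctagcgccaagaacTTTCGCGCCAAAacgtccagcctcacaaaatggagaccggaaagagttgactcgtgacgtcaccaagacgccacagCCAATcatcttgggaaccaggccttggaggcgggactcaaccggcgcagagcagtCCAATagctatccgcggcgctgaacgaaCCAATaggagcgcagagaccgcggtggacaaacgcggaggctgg
Top2a: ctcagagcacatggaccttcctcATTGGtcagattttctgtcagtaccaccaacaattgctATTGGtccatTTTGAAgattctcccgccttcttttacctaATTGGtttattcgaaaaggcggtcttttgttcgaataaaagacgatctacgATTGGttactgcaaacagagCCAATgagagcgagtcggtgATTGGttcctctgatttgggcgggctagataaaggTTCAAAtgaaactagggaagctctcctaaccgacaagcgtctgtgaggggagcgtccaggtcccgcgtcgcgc

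In these windows Mki67 holds 2 CHR matches and 3 CCAAT boxes, and Top2a holds 2 CHR matches and 6 CCAAT boxes. Mcm5 holds a CHR-like match, 3 CCAAT boxes and 2 E2F matches that overlap each other on opposite strands. Rrm2 holds 1 CCAAT box and a CHR-like match that begins at the annotated start. The Chek1 window holds none of the CHR, CHR-like or CCAAT letters and 1 match of the E2F letters ending in G. This window lies inside Chek1 in the GENCODE annotation, whose outermost start, at 36727065, is upstream of it. The Mcm5 window ends at 75109558, before the GENCODE start of the gene at 75109569. What these windows hold therefore depends on the annotated start used. Over the 31 members with a promoter in the table (33 windows), CHR was in 45.5% of windows, against 17.9% of all 32851 windows. The CHR-like letters were in 30.3% against 13.2%, the CCAAT box in 78.8% against 37.4%, and the E2F letters ending in C in 18.2% against 2.26%. Those ending in G were in 2 of the 33 windows, Birc5 and Chek1. They were added because of the Chek1 window, so their share cannot be set against that of all windows. Members that fell also had few or no matches: the Tyms window held 0 matches of the 5 motifs, and the Pcna window held 1, a CCAAT box. A match is a description of these letters and not a site, and a link between motifs and direction was not tested. No window was used for Kif20a, Mcm4, Stmn1, Tpx2, Aurkb, Ccna2 and Ccne2.

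Chek1 encodes the kinase that, when forks stall, holds CDK1 and CDK2 in check. It read 1.91, 3.24 and 0.757 rescaled FPKM in WT control and 16.5, 21.3 and 21.5 in WT IRI. The KO controls read 3.99, 2.19 and 2.13, and the KO IRI libraries 4.72, 13.5 and 13.8. The IRI libraries lay above the control libraries in both genotypes, with KO IRI 1 only just above KO control 1. In WT the log2 difference was 2.89 ± 0.41 (SE, n = 3, adjusted p = 0.00298) and passed under each of 23 alternatives, between 1.84 and 3.34. In KO it was 1.54 ± 0.41 (adjusted p = 0.0878) and did not pass. It passed in KO under 1 of 23 alternatives, without KO IRI 1 (adjusted p = 0.0204), and the highest adjusted p among them was 0.272. The difference between the genotypes' responses was −1.35 ± 0.58 (unadjusted p = 0.0414, adjusted p = 0.906), so a smaller response in KO was not shown. No gene of the GENCODE annotation that codes for protein overlaps Chek1.

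Among the licensing genes, the MCM2-7 subunits with Cdc6, which helps to load them, and Cdc45, which activates them, Mcm5 fell and 7 did not pass. It read 12.0, 13.0 and 10.8 rescaled FPKM in WT control against 7.28, 7.02 and 8.43 in WT IRI. In KO it read 11.8, 11.2 and 7.33 without injury against 6.63, 7.0 and 6.96 after it. Its groups did not overlap in either genotype, and the log2 difference averaged over genotype was −0.53 ± 0.12 (SE, adjusted p = 0.0158). Mcm6 missed the threshold (−0.38 ± 0.12, adjusted p = 0.0526; it passed with quantile normalization), going from 22 ± 3.13 to 15.1 ± 2.76 in WT and from 21.9 ± 2.33 to 18.3 ± 2.44 in KO (mean ± SD, n = 3). The remaining subunits of the ring did not pass. Mcm4 went from 18.9, 17.1 and 23.1 to 24.2, 24.2 and 24.1 in WT, and from 14.6, 18.3 and 22.2 to 20.4, 30.4 and 49.4 in KO, a log2 difference of 0.53 ± 0.19 that did not pass (adjusted p = 0.102). Mcm7 differed by −0.01 ± 0.13, Mcm2 by −0.24 ± 0.17 and Mcm3 by −0.25 ± 0.14, on the same scale. Cdc6 (mean 1.36) and Cdc45 (mean 1.5) were near the filter and did not pass.

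The genes for the fork and for nucleotide supply held 3 that fell of 5. Rrm2 encodes the cell-cycle-regulated subunit of ribonucleotide reductase, which makes deoxynucleotides. It read 6.27, 8.34 and 6.40 rescaled FPKM in WT control against 4.02, 2.67 and 1.19 in WT IRI. The KO controls read 11.7, 9.71 and 5.41, and 3.98, 2.43 and 3.16 were found in KO after IRI. Every IRI library was below every control library, and the log2 difference of −1.21 ± 0.23 (adjusted p = 0.00745) was the largest fall of any member. Rrm1, the large subunit of the same enzyme, read 17.7 ± 2.40 and 17.5 ± 2.23 in WT and 13.7 ± 2.19 and 17.9 ± 4.27 in KO (mean ± SD, n = 3, control and IRI), and its difference of 0.16 ± 0.14 did not pass.

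Tyms, thymidylate synthase, fell by 0.65 ± 0.18 on the log2 scale averaged over genotype (adjusted p = 0.0357). It read 4.85, 5.82 and 3.92 rescaled FPKM in WT control and 3.16, 4.25 and 4.29 in WT IRI, which overlap. In KO it read 7.56, 5.94 and 3.27 in control and 2.37, 2.03 and 1.88 in IRI, which do not. Pcna, the sliding clamp of DNA polymerases, read 94.8, 94.2 and 90.2 in WT control and 77.4, 73.7 and 97.8 in WT IRI. In KO Pcna read 95.8, 98.4 and 91.5 in control and 71.1, 67.0 and 68.0 in IRI, again without overlap there and with WT IRI 3 inside the control range. Its difference was −0.32 ± 0.09 (adjusted p = 0.0346). Tk1, thymidine kinase of the salvage route, differed by 0.05 ± 0.15 and did not pass.

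The cyclins of S phase entry did not pass: Ccne1 differed by −0.01 ± 0.27 and Ccne2 by 0.43 ± 0.28 on the log2 scale. Of the 12 kinases, cyclins and checkpoint genes of G2 and mitosis, Ccnb2 fell and 11 did not pass. Ccnb2, a B-type cyclin that partners CDK1, read 2.94, 2.54 and 5.96 rescaled FPKM in WT control against 1.72, 1.20 and 1.34 in WT IRI. The values in KO were 3.85, 3.44 and 3.09 without injury and 1.80, 1.87 and 3.33 with it. WT libraries separated and KO libraries overlapped through KO IRI 3, and the difference was −0.69 ± 0.19 (adjusted p = 0.0415). Bub1, a kinase of the spindle checkpoint, just missed (−0.66 ± 0.20, adjusted p = 0.0540). Aurkb, the kinase of the chromosomal passenger complex, differed by −0.66 ± 0.30, and Birc5, its partner survivin, by −0.50 ± 0.22. Cdk1 itself differed by −0.50 ± 0.25. Cdc20 and Ccnb1 differed by 0.09 ± 0.17 and 0.06 ± 0.23. Plk1, Aurka, Ccna2, Ube2c and Bub1b lay between −0.38 and −0.15, and none of these 10 genes passed.

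Of the 7 tested genes of the spindle, kinetochore and chromosome, Top2a, Kif11 and Cenpe fell. Top2a, topoisomerase II alpha, which untangles chromosomes, read 14.9, 15.7 and 11.1 rescaled FPKM in WT control and 5.92, 6.08 and 10.3 in WT IRI. KO controls read 20.03, 16.7 and 9.78, against 7.57, 8.5 and 8.68 for KO IRI. Its groups did not overlap in either genotype (−0.81 ± 0.19, adjusted p = 0.0182). Kif11, the motor that separates spindle poles, read 3.98, 3.43 and 3.32 in WT control against 1.17, 1.42 and 1.31 in WT IRI. The same gene read 5.25, 3.55 and 2.11 in KO without injury and 1.77, 1.32 and 2.76 after it. The WT groups were far apart and the KO groups overlapped (−0.81 ± 0.19, adjusted p = 0.0187). Cenpe, a kinetochore motor, read 3.58, 4.89 and 4.49 in WT control and at most 2.59 in any other library.

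The difference of Cenpe after IRI was −0.73 ± 0.19 averaged over genotype (adjusted p = 0.0320), −1.18 ± 0.28 in WT and −0.29 ± 0.28 in KO. Cenpf, Tpx2 and Nusap1 differed by −0.19 ± 0.20, −0.47 ± 0.21 and −0.31 ± 0.38 and did not pass. Prc1, which bundles microtubules at the midzone, differed by −0.53 ± 0.16 in WT and by 0.28 ± 0.16 in KO, and passed in neither. Kif20a, below the filter, was between 0.930 and 1.66 in WT control and at most 0.784 in WT IRI. In KO it was at least 1.08 in control and at most 0.875 after IRI, so the IRI libraries were below the controls in both genotypes. Without the filter it did not pass in limma (adjusted p = 0.479 in WT, 0.63 in KO and 0.205 averaged over genotype). Cdc23, at a mean of 17.2 FPKM as deposited, overlaps Kif20a on the opposite strand, so these low values can hold Cdc23 reads.

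Mki67, the gene of the proliferation antigen Ki-67, read 11.1, 12.0 and 9.10 rescaled FPKM in WT control and 5.07, 4.34 and 4.46 in WT IRI. In KO the controls read 16.7, 10.5 and 8.57 and the injured group 8.06, 5.22 and 7.92. All 6 IRI libraries were below all 6 controls, by a small margin in KO, and the difference was −0.85 ± 0.17 (adjusted p = 0.00767). Stmn1, the microtubule-destabilising protein stathmin, differed by −0.49 ± 0.25 and did not pass.

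**Figure D2:**
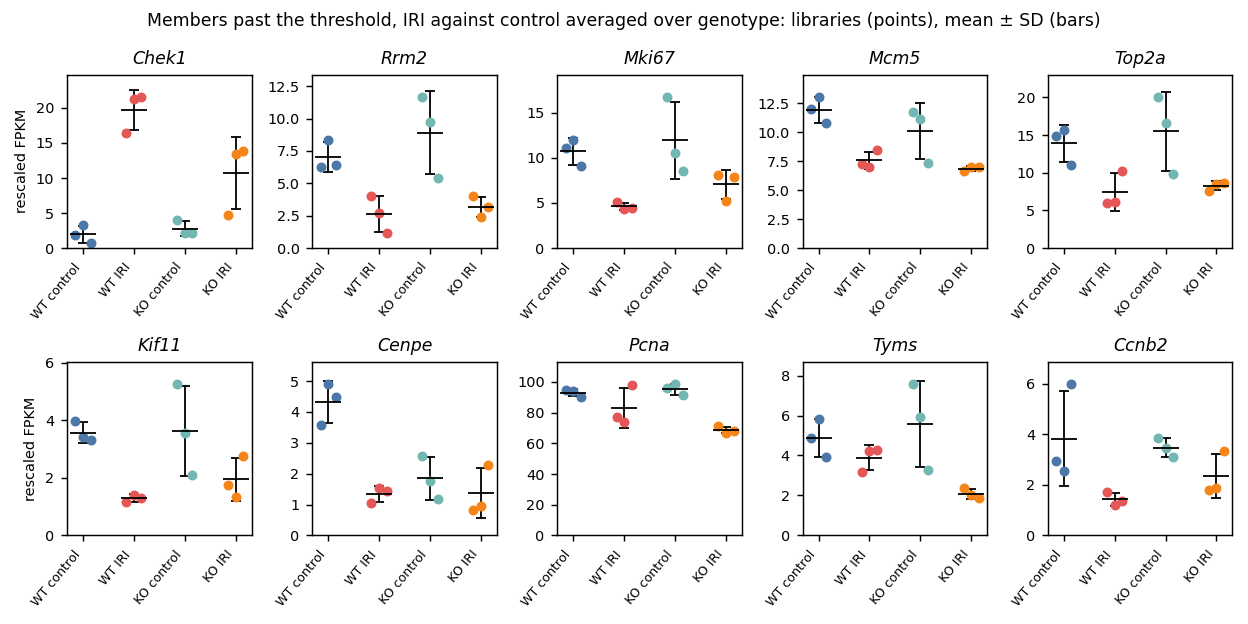
Rescaled FPKM of the 10 members past the threshold in IRI against control averaged over genotype, with each library as a point and the group mean ± SD (n = 3) as bars. Chek1 is higher in the IRI groups and the other 9 are lower, with KO control the most widely spread group for Rrm2, Top2a and Mki67.

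The number of members called moved with the libraries used, while 5 calls held throughout. Chek1, Rrm2, Mki67, Mcm5 and Top2a passed in all 22 alternatives of the comparison averaged over genotype, and Kif11 in 20 of 21. Over the 12 fits that each lacked 1 library, Cenpe and Tyms passed in 4, and Pcna and Ccnb2 in 2. The count fell from 10 to 6 without WT IRI 1, KO control 1, KO control 2 or KO IRI 2.

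In WT alone, IRI against control (3 against 3 libraries) gave 1 member that rose, Chek1, and 3 that fell. These were Mki67 (−1.06 ± 0.23, adjusted p = 0.0229), Cenpe (adjusted p = 0.0278) and Kif11 (−0.99 ± 0.27, adjusted p = 0.0486). The falls were 8.11% of the 37 tested members, where 4.68% of all genes fell, and the rise 2.7%, where 3.26% of all genes rose. Counted by overlap, 14 of 37 members (37.8%) had all 3 IRI libraries below all 3 controls, where 13.6% of all genes did. The median log2 difference was −0.41. The count of 4 was not steady: it was 1, Chek1, with values as deposited, with libraries scaled to a common sum, and without WT control 1, WT control 2 or WT IRI 2. It was 2 without WT control 3 or WT IRI 1, and 7 without KO control 3.

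In KO alone, limma called 0 of the 37 members, where 0.959% of all genes rose and 1.1% fell. At an unadjusted p under 0.05 there were 9 members (24.3%), against 16.4% of all genes. The closest to the threshold were Tyms (−1.04 ± 0.25, adjusted p = 0.0641), Pcna (−0.46 ± 0.12, adjusted p = 0.0848), Chek1, and Rrm2 (−1.20 ± 0.33, adjusted p = 0.0957). By overlap, 7 of 37 members (18.9%) had all IRI libraries below all controls, where 10.6% of all genes did, and the median log2 difference was −0.34. The count rose to 1 without WT IRI 3 (Pcna) or without KO control 3 (Tyms), and to 2 without KO IRI 1 (Chek1 and Mcm4). Among the members lower in both, Rrm2 differed by −1.21 ± 0.33 in WT and −1.20 ± 0.33 in KO, Top2a by −0.85 ± 0.27 and −0.78 ± 0.27, and Mcm5 by −0.59 ± 0.17 and −0.47 ± 0.17. By the sign of the mean, 25 of 37 members were lower in both genotypes, 3 were higher in both and 9 had opposite signs. Without overlap in both genotypes, 4 of 37 were lower (10.8%), namely Mcm5, Rrm2, Top2a and Mki67, where 5.48% of all genes were.

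**Figure D3:**
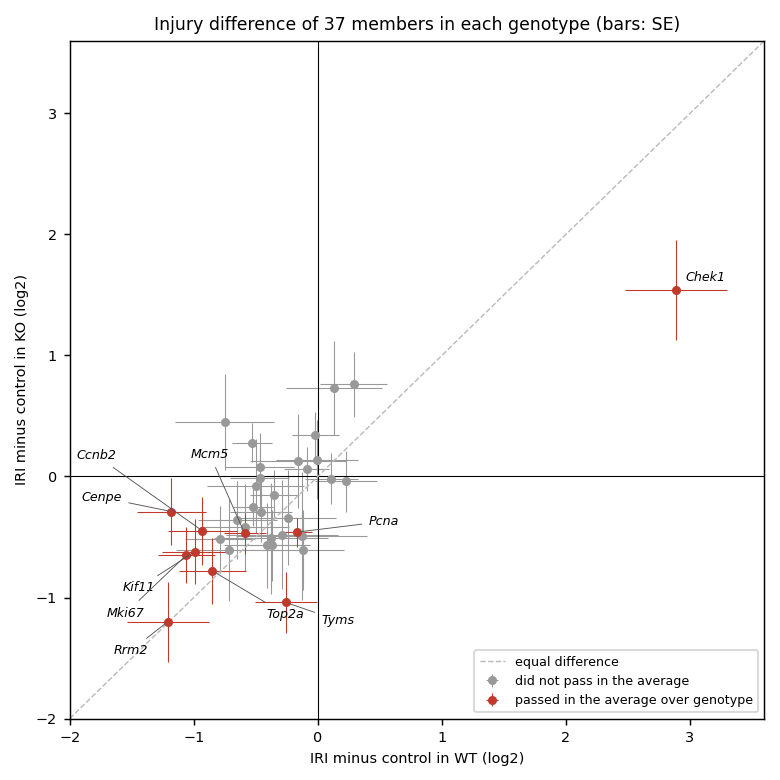
Log2 difference of IRI minus control in WT (horizontal axis) and in KO (vertical axis) for the 37 tested members, with SE bars, and red for the 10 that passed in the average over genotype. Most points lie at the lower left, and Chek1 lies alone at 2.89 in WT and 1.54 in KO.

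The members spread most widely, by the range of their sum, in the KO controls. KO control 1 was the highest of its group for 26 of 38 members and KO control 3 the lowest for 31 of 38. The summed members were 406, 362 and 295 rescaled FPKM in KO controls 1, 2 and 3, against 349, 369 and 342 in the WT controls. They were 295, 293 and 314 in WT IRI and 279, 297 and 349 in KO IRI. The sum over the 12 genes of G2 and mitosis was 51.8, 39.3 and 19.2 in KO control, so KO control 3 lay below all 3 KO IRI libraries (23.9, 24.6 and 29.9). In WT the same sum was 32.5, 42.2 and 38.4 in control and 25.9, 24.3 and 22 in IRI, which did not overlap. KO control 1 was also the library with the highest Igkc, an antibody light chain from B lineage cells, at 944 rescaled FPKM, against 186 and 208 in the other KO controls. KO controls 1 and 3 also had the fewest genes at 1 FPKM or more as deposited, 16601 and 16059, against 18388 in KO control 2. The part of B lineage cells, or of this difference in detection, in the members' values was not tested.

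Loss of Keap1 gave 0 calls among the 37 members in limma in each of 4 comparisons. Few genes of any kind passed there: 0.0363% of all tested genes in controls, 0.057% after IRI, 0.00518% in the interaction and 0.55% averaged over condition. At an unadjusted p under 0.05 there were 3 members (8.11%) in controls, against 11% of all genes, and 2 after IRI (5.41%), against 16.5%. There were 3 (8.11%) in the interaction, against 4.87%, and 2 (5.41%) averaged over condition, against 21.4%. The median log2 difference of the members between KO and WT was −0.0043 in controls and 0.11 after IRI.

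In controls the smallest p belonged to Prc1. Rccd1, at a mean of 12 FPKM as deposited, overlaps Prc1 (mean 6.99) on the opposite strand, so the Prc1 values here and in the interaction can hold Rccd1 reads. Prc1 read 10.1, 8.56 and 9.06 rescaled FPKM in WT control and 5.5, 6.32 and 4.60 in KO control, without overlap (−0.67 ± 0.16, adjusted p = 0.275). Cenpe (−0.93 ± 0.28, adjusted p = 0.281) and Cenpf (−0.68 ± 0.28, adjusted p = 0.401) were also lower in every KO control library than in every WT control library. After IRI, Tyms was lower in KO by 0.66 ± 0.25 (log2, adjusted p = 0.247) and Chek1 by 0.95 ± 0.41 (adjusted p = 0.287). In the interaction, Prc1 (0.81 ± 0.23) and Cenpe (0.89 ± 0.39) had unadjusted p-values of 0.00489 and 0.0451, and both an adjusted p of 0.906.

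The other genes of the pathway were read from lists fixed by name, and their counts stand against 6.35% of all genes that rose and 7.33% that fell. Of 38 tested further DNA replication genes, 6 rose and 6 fell after IRI averaged over genotype (15.8% each), with a median of −0.08. Cdt1, which loads MCM2-7 with Cdc6, rose from a mean of 12.5 to 22.4 rescaled FPKM (0.80 ± 0.13, adjusted p = 0.00322). Uhrf1, which keeps DNA methylation at the fork, fell from 6.19 to 1.74 (−1.37 ± 0.27, adjusted p = 0.00761), Rpa1, of the single-strand binding complex, fell by 0.52 ± 0.10, and Pold2, a subunit of polymerase delta, fell by 0.68 ± 0.14. With values as deposited 1 rose and 5 fell, and with libraries scaled to a common sum 0 rose and 2 fell. Among 44 tested further mitosis genes 2 rose (4.55%, below the share of all genes) and 7 fell (15.9%), with a median of −0.14. Ndc80, of the outer kinetochore, rose from 2.09 to 5.17 (1.00 ± 0.11, adjusted p = 0.000474). Smc2, a condensin subunit, fell from 8.23 to 3.87 (−0.94 ± 0.16), Hmgb2, a chromatin protein, fell by 0.63 ± 0.12, and Hmmr, a spindle protein, by 0.71 ± 0.18. As deposited, 1 mitosis gene rose and 4 fell.

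Of the 20 G1 cyclins, their kinases, and E2F and MYB factors, 0 rose and 5 fell (25%), with a median of −0.24. Ccnd2, cyclin D2, a D-type cyclin of lymphocytes entering G1, read 87.2, 110 and 117 rescaled FPKM in WT control and 22.7, 21 and 37.6 in WT IRI. Values of 152, 79.8 and 134 in KO control stood against 69.1, 29.5 and 31.7 in KO IRI. The groups did not overlap in either genotype (−1.74 ± 0.25, adjusted p = 0.00167). Its kinase partner Cdk4 fell to a mean of 9.98 (−0.93 ± 0.17, adjusted p = 0.00487), and Tfdp1, the partner of E2F proteins, fell from 7.89 to 2.94 (−1.15 ± 0.18, adjusted p = 0.00238). E2f3 and E2f6 fell by 0.62 ± 0.16 and 0.56 ± 0.14 on the log2 scale.

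Among 18 tested brakes of the cycle and quiescence genes, 5 rose (27.8%) and 0 fell. The median was 0.21, and it was −0.08 with libraries scaled to a common sum, where 1 rose. As deposited 2 rose. Cdkn1a, the CDK inhibitor p21, read 3.81, 1.67 and 1.88 rescaled FPKM in WT control and 18.3, 19.2 and 14.1 in WT IRI. Without injury KO libraries read 7.72, 4.75 and 3.54, and with it 22.6, 22.7 and 26.0. It passed in both genotypes, by 2.44 ± 0.27 in WT (adjusted p = 0.00109) and 2.02 ± 0.27 in KO (adjusted p = 0.00664). Cdkn2d, p19, an inhibitor of CDK4 and CDK6, likewise passed in both, by 0.78 ± 0.16 (adjusted p = 0.0155) and 1.26 ± 0.16 (adjusted p = 0.00489). With libraries scaled to a common sum both calls in KO were lost (Cdkn1a 1.54, adjusted p = 0.0551, and Cdkn2d 0.76, adjusted p = 0.235), and so was Cdkn2d in WT, which also did not pass there as deposited. Btg1, an antiproliferative gene of resting lymphocytes, rose from 322.5 to 465.5 averaged over genotype, and Klf2, a quiescence factor, from 232.5 to 350.6.

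Of 71 replication-dependent histone genes 46 were tested, and 0 rose and 10 fell (21.7%), with a median of −0.60. The linker histone genes Hist1h1d (9.33 to 3.46, −1.19 ± 0.17, adjusted p = 0.00170) and Hist1h1e (33.4 to 19.7, −0.72 ± 0.14, adjusted p = 0.00883) were among them. Many histone genes are near copies of each other, so the split of reads between them is uncertain. Another 7 genes were the IL-2 axis, through which activated T cells are driven to divide, and the activation genes Cd69, Tfrc and Cd44. Of these 7 genes 1 rose and 4 fell. Il2rg, the common cytokine receptor chain, fell from 178.1 to 91.6 (−0.98 ± 0.16), Cd44 fell from 76.9 to 37.2 (−1.05 ± 0.12), Il2 fell by 0.85 ± 0.21 and Il2rb by 0.47 ± 0.12. Tfrc, the transferrin receptor, rose from 11.8 to 23.0, and did not pass with libraries scaled to a common sum, where 3 of the list fell. Between genotypes 0 genes of these 6 lists passed in controls, after IRI, in the interaction or averaged over condition. As deposited, the median of all genes averaged over condition was 0.29 higher in KO. In that last comparison 10 of 18 brakes, 6 of 20 G1 genes and 4 replication genes were then higher in KO. So were 2 mitosis genes, 2 genes of the IL-2 and activation list and 0 histone genes.

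By genotype, the replication list held 3 genes that rose and 2 that fell in WT after IRI and 1 that rose in KO, and the mitosis list 2 and 3 in WT and 1 that rose in KO. Of the G1 list 4 fell in WT and 0 in KO, of the histone genes 8 and 0, and of the IL-2 and activation list 4 and 1. Of all genes 4.68% fell and 3.26% rose in WT, and 1.1% and 0.959% in KO. These falls moved with the scaling: with libraries scaled to a common sum there were 0 in either genotype for the 3 lists. As deposited 4 G1 genes, 4 histone genes and 2 genes of the IL-2 and activation list fell in WT and 0 in KO. Genes that passed in both genotypes were Cdt1 (0.69 ± 0.18 in WT and 0.91 ± 0.18 in KO), Ndc80 (1.11 ± 0.16 and 0.88 ± 0.16), Cd44 (−1.24 ± 0.17 and −0.87 ± 0.17), Cdkn1a and Cdkn2d. With libraries scaled to a common sum, Cdkn1a in WT was the only one of these calls that passed. As deposited, Cdt1 passed in neither genotype, Ndc80 and Cd44 passed in WT alone, and Cdkn2d in KO alone. A call in WT and none in KO does not show that the genotypes differ, and the interaction passed for 0 of these genes.

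**Figure D4:**
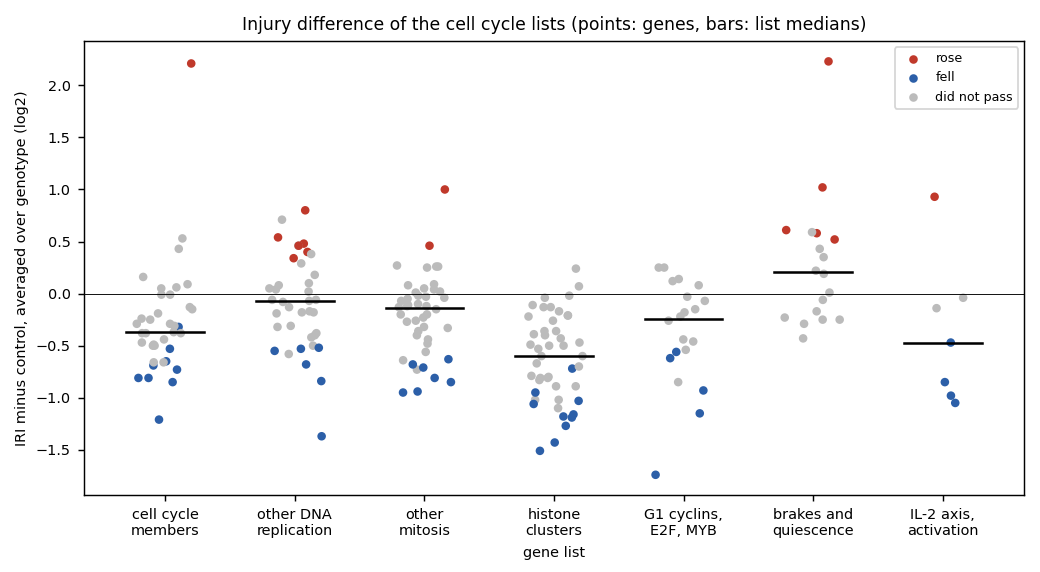
Log2 difference of IRI minus control averaged over genotype for the tested genes of 7 lists, with red for genes that rose, blue for genes that fell, grey for those that did not pass, and bars for list medians. Medians are below 0 for the members (−0.37), other replication (−0.08), other mitosis (−0.14), histone (−0.60) and G1 genes (−0.24) and the list of IL-2 axis and activation genes (−0.47). The median is above 0 for the brakes (0.21, but −0.08 with libraries scaled to a common sum).

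Markers of T cells and of other cells also moved with IRI, and their part in these differences was not tested. Averaged over genotype 8 of 12 T cell markers fell, with a median of −0.60, as did 5 of 7 tested CD8 T and NK cell markers and 5 of 8 B and plasma cell markers. Of all tested genes 7.33% fell and 6.35% rose in this comparison, which the counts below also use unless WT is named. The summed B and plasma cell markers were 130.8 to 239.6 rescaled FPKM in WT control and 53.7 to 63.7 after IRI. In KO they went from 336.9 to 1282 in controls and from 55.9 to 168.8 after IRI. Macrophage and monocyte markers summed to 185.6 to 268.2, 145.2 to 154.8, 235.2 to 324.3 and 100.6 to 204.8 in WT control, WT IRI, KO control and KO IRI, with 1 of 10 higher and 5 lower. In WT, 2 of the 10 were lower without overlap, where 13.6% of all genes were. These were Ly6c2 (at least 27.59 in control, at most 3.459 after IRI) and Ccr2 (at least 57.09 and at most 23.93). Cd14 was higher without overlap (at most 13.01 in WT control, at least 15.16 after IRI), and the other markers overlapped. Neutrophil markers summed to 1.75 to 8.13, 20.9 to 34.7, 0.824 to 2.14 and 3.77 to 25.4 in the same order of groups. Of 4 tested, 2 rose, S100a8 and S100a9, while Ly6g and Cxcr2 did not pass and overlapped between WT control and WT IRI. Dendritic cell markers summed to 15.6 to 22.7, 11.2 to 16.8, 17.8 to 31.9 and 11 to 14.1, and 3 of 7 fell.

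Tubule markers varied widely between libraries. Those of the proximal tubule summed to 7.27 to 65.0, 3.05 to 46.6, 1.97 to 152.3 and 5.14 to 244.7 in the same order, and 0 of 5 tested passed. Those of other and injured tubule summed to 11.01 to 86.8, 18.3 to 147, 1.62 to 38.1 and 12.3 to 303.5, and Lcn2, a gene of injured tubule and of neutrophils, rose (4.20, adjusted p = 0.00242). Both highest sums were in KO IRI 3, where Umod read 121.1 and Kap 219.2. KO IRI 3 was also the highest of its group for 20 of 38 members, with the Mcm4 value of 49.4 and the Ccnb2 value that overlapped the controls. Without it 9 members passed averaged over genotype, and the part of tubule RNA was not tested. No marker of these lists was listed at 0 in all 12 libraries.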

How the data were processed

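The data are total RNA sequencing of sorted kidney CD4 T cells, in 12 libraries, 3 per group. Per the file headers, the authors deposited 1 FPKM value per gene and library, for 52632 genes. Per the submitters' processing notes, the build was GRCm38 and the tools included Cufflinks 2.2.1, TopHat2 2.1.0, Partek 7.0 and bcl2fastq 2.17.1.14. Per the labels' protocols, reads were paired and 36 bp long. The annotation, how strand was handled and whether libraries were scaled are not given in the sources used here. Symbols were paired with 52399 of the gene IDs.

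FPKM hold no counts, so depth is unknown and count tests were not used. Each library was divided by a median ratio, taken against the geometric mean of the 12 values of each of 16018 tested genes with no 0. This scaling leads because, as deposited, the median gene lay above 0 between KO and WT, by a log2 of 0.30 in controls and 0.26 after IRI, against 0.01 and 0.02 after rescaling. Scaling to a common sum of FPKM moved the median gene to −0.35 for IRI in KO. The 19288 genes whose mean reached 1 FPKM were tested in limma 3.58.1 with R 4.3.3 (lmFit, eBayes with trend) on log2(rescaled FPKM + 1), which understates changes of low genes, with 1 mean per group and 8 residual degrees of freedom. Adjustment was by Benjamini-Hochberg, separately in each of 7 comparisons. The procedure was tested on simulated data. Promoters are from RefSeq (GRCm38.p6), and overlapping genes from GENCODE mouse release 21. All members were named, and from each list up to 4 genes that passed, by smallest adjusted p. The members and lists were chosen with earlier results of these data known. Alternatives changed the scaling, pseudocount, filter, trend, libraries and replicate block.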

Additional observations from a re-analysis of the deposited data

How the results depend on the processing

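The depth of the libraries is unknown, so no counting error bounds the low members, and group sizes of 3 limit each comparison. The members called in WT after IRI were 4, and were 1 with values as deposited, 1 with libraries scaled to a common sum, 1 without a filter on low values and 7 with quantile normalization. With 1 library left out they ran from 1 to 7 in WT, from 0 to 2 in KO and from 6 to 10 averaged over genotype. Averaged over genotype the count was 10, and 6 without KO control 1, WT IRI 3 and WT control 3 together, which stood apart in earlier results. In the 4 comparisons of genotype the count was 0 under every alternative run. The median of the members for IRI in KO went from −0.34 to −0.73 with libraries scaled to a common sum. Prc1 in KO against WT averaged over condition (−0.26, not passed) changed sign to 0.02 as deposited. Replicate numbers gave no clear pairing of the libraries, though deviations within groups of 3 cannot exclude one. Over 18 same-numbered pairs the correlations of deviations ran from −0.03 to 0.21, and 1 was over 0.1. Of the 12 libraries, 6 correlated best with their own number. With the replicate block 3 members passed in WT, 0 in KO and 8 averaged over genotype, and 0 in the other comparisons.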

Other observations

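Because Chek1 rose alone among the members, 13 genes were read beside it, chosen after its values had been seen: 11 that act with it or beside it in DNA damage signalling, and its neighbours Stt3a and Ei24. Topbp1, which activates the kinase ATR upstream of CHK1, rose after IRI averaged over genotype from a mean of 27.9 to 45.5 rescaled FPKM (0.67 ± 0.12, SE, adjusted p = 0.00418 in limma), and its IRI libraries lay above its controls in both genotypes. It did not pass in KO alone (adjusted p = 0.087), nor averaged over genotype with libraries scaled to a common sum (0.39, adjusted p = 0.251). Atr (−0.21 ± 0.13) and Clspn (−0.27 ± 0.19), the adaptor of CHK1, did not pass. Atrip, Timeless, Tipin, Rad17 and Hus1 did not pass either (adjusted p from 0.118 to 0.886). Of the 13, only Topbp1 rose and only Atm and Trp53 fell averaged over genotype, where 6.35% of all genes rose and 7.33% fell. Atm, the kinase that answers double-strand breaks, fell from 17.6 to 10.5 (−0.71 ± 0.16, adjusted p = 0.0183), without passing in KO alone (adjusted p = 0.317), and Trp53, the gene of p53, fell from 28.2 to 14.7 (−0.92 ± 0.10, adjusted p = 0.000317). Trp53 read 27.8, 27.0 and 28.2 in WT control against 12.7, 11.7 and 11.6 after IRI. The KO controls read 28.9, 25.4 and 32.2 against 18.8, 19.2 and 14.1 after IRI, while Cdkn1a, a known p53 target, rose in the same libraries. Chek2 was 6.20 in WT control, 1.70 in WT IRI, 2.07 in KO control and 1.87 in KO IRI by mean. It passed in WT (−1.31 ± 0.32, adjusted p = 0.0316) and neither in KO (−0.11, adjusted p = 0.911) nor averaged over genotype (adjusted p = 0.0617). The WT controls scattered, at 3.16, 5.56 and 9.89. The call in WT was lost as deposited (adjusted p = 0.0663) and with libraries scaled to a common sum (adjusted p = 0.19). The neighbours Stt3a and Ei24 differed by −0.02 ± 0.17 and 0.34 ± 0.17 averaged over genotype and did not pass. In WT, Ei24 read 27.1, 25.03 and 49.0 after IRI against 15.5, 20.6 and 19.5 in control, without overlap (0.77 ± 0.23, adjusted p = 0.0743), and it differed by −0.09 ± 0.23 in KO.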
